A study of Mus musculus with 6 samples.

Results

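The transcripts described here encode 9 long or sarcomere-bound scaffold proteins of skeletal muscle, which are titin (Ttn), nebulin (Neb), the myomesins (Myom1, Myom2 and Myom3), the myosin binding proteins C and H (Mybpc1, Mybpc2 and Mybph) and the Xin actin-binding protein (Xirp1). They were chosen by gene symbol and make up 9 of the 20950 entries of the deposited expression table. A mean of at least 1 FPKM (fragments per kilobase of transcript, scaled to the mapped reads of the library) over the libraries was reached by 8 of them, against 10731 entries in all, and Mybpc2 fell short of it. Cells of C2C12, an established line of mouse myoblasts, which form multinucleate myotubes after serum withdrawal, were sequenced as 6 libraries of polyadenylated RNA. The library of growing cells came from DMEM with 10% FBS (fetal bovine serum). The differentiating cells were moved at high confluency into DMEM with 2% HS (horse serum) or with 0.2% FBS, and each medium was also used with exosomes isolated from FBS by precipitation kits and added at about the amount contained in 10% FBS. Only the condition 0.2% FBS + exosome had 2 libraries, and the other 4 had 1 each. All 6 libraries thus come from 1 cell line, and nothing in the labels says that the 2 replicate libraries came from separate cultures. Their p-values therefore measure only the spread between these samples, which may be technical.

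The sarcomere, the contractile unit of striated muscle, is held in register by a few very long proteins. Titin spans from the Z-disc at the sarcomere's edge to the M-band at its centre, nebulin runs along the actin thin filament, and the myomesins link myosin thick filaments and titin at the M-band. Myosin binding proteins sit on the thick filament beside the myosin heads, and Xin proteins bind actin at cell junctions and at sites of filament assembly and repair. Transcripts of these proteins are made when myoblasts leave the cell cycle and form myotubes.

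On the mm10 genome with GENCODE annotation the genes lie far apart, except that Ttn and Neb share a chromosome. Ttn (chr2:76703980-76982547, minus strand) has a longest coding transcript of 106824 bases in 347 exons, and Neb (chr2:52136647-52378474, minus strand) one of 22489 bases in 157 exons. Myom1 (chr17:71002633-71126856), Myom2 (chr8:15057653-15133541) and Myom3 (chr4:135759715-135815564), all on the plus strand, have 38, 37 and 37 exons in transcripts of 5648, 5075 and 5575 bases. Mybpc1 (chr10:88518279-88605152, minus strand) has 29 exons, Mybpc2 (chr7:44501699-44524656, minus strand) has 28, and Mybph (chr1:134193448-134201232, plus strand) has 10. Xirp1 (chr9:120013755-120023598, minus strand) has 3 exons. FPKM is divided by transcript length, so levels of different genes are set side by side here, but only as far as the lengths used in that calculation, which are not given in the sources used here, hold for these long transcripts.

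Promoter sequences, from 250 bases before to 50 bases after the transcription start, were matched by symbol in a RefSeq table of build GRCm38.p6 for 6 of the 9 genes, and Neb, Myom2 and Xirp1 had no entry. The 5 printed here each hold a motif of a muscle transcription factor family, in capitals, and come from genes whose levels moved together in the libraries. Capitals mark a MEF2 motif in Ttn (chr2:76982498-76982797, minus strand) and Myom3 (chr4:135759465-135759764, plus strand), a CArG box in Myom1 (chr17:71019307-71019606, plus strand), and the E-box CAGCTG in Mybph (chr1:134193198-134193497, plus strand) and Mybpc1 (chr10:88605103-88605402, minus strand). MEF2 and serum response factor bind the MEF2 motif and the CArG box, and the myogenic factors MyoD and myogenin bind E-boxes.
Ttn: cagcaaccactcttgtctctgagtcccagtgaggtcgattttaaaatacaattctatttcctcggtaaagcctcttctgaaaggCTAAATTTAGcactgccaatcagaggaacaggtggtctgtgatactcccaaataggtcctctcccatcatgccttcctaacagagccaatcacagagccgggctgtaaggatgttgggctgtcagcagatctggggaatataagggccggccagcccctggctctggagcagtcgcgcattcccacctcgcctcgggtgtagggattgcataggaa
Myom3: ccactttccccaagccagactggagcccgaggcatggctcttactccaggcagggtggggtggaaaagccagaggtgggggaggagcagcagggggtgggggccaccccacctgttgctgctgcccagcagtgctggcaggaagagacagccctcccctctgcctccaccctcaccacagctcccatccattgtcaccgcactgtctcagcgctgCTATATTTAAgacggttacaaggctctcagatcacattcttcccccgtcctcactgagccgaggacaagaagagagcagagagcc
Myom1: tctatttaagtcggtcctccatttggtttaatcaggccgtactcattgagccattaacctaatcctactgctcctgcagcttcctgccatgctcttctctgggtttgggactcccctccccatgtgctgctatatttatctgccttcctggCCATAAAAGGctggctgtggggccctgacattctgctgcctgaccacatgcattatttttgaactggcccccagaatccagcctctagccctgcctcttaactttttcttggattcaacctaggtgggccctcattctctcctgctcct
Mybph: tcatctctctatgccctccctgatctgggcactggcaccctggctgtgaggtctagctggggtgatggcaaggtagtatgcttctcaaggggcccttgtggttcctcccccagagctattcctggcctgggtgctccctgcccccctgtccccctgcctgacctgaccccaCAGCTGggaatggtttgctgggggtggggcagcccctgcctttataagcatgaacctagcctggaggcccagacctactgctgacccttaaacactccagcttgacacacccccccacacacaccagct
Mybpc1: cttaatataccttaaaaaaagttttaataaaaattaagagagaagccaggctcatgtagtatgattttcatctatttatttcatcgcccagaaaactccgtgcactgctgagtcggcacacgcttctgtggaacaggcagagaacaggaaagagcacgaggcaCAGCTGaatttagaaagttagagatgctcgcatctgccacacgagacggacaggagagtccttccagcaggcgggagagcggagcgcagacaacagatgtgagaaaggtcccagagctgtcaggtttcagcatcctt
The MEF2 motif lies from -166 to -157 in Ttn and from -35 to -26 in Myom3, counted from the transcription start. The CArG box of Myom1 lies from -99 to -90, and the E-box CAGCTG from -79 to -74 in Mybph and from -87 to -82 in Mybpc1. Searched on both strands, the MEF2 motif was present in 3.19% and the CArG box in 1.63% of all 32851 promoters of the table, and CAGCTG in 16.3%. An E-box of any kind (CANNTG, which includes CAGCTG) was in all 6 promoters, but also in 72.3% of the table, and the MCAT motif CATTCC was in 3 of the 6 (Ttn, Mybpc2 and Mybph) against 14.7%. In Mybph the MCAT motif, read on the opposite strand as GGAATG, directly follows the E-box, from -73 to -68. RefSeq starts Myom1 inside the GENCODE gene, not at its first base. A match of letters is a description and does not show that a factor binds.

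Read depth was estimated at 33500000 to 39400000 reads per library from the steps of low FPKM values, so that 1 FPKM corresponds to about 33.5 to 39.4 reads per kilobase. At the length of the longest coding transcript this puts Ttn at roughly 53500 to 168000 reads and Mybpc2 at 20 to 264. The markers of myotubes were present in every library, also in the one of growing cells, where Myog, the myogenin gene, was at 512 FPKM against 564 FPKM in 2% HS. Of 10 myotube marker symbols 8 were listed, with Mymk and Mymx, which drive myoblast fusion, under their older names Tmem8c and Gm7325. The blood cell marker Hbb-bs and the fibroblast marker Thy1 were at 0 in every library, but other genes of their lists were not. Of the fibroblast list, Col3a1 was at 1025 to 1811 FPKM and Dcn at 41.1 to 182 FPKM. Of the blood cell list, Pf4 was at 0.466 to 3.59 FPKM and Ptprc at no more than 0.0119 FPKM.

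All 9 transcripts had the same broad pattern. They were higher in 2% HS, in 2% HS + exosome and in 0.2% FBS than in 10% FBS and in either library of 0.2% FBS + exosome, without overlap of these sets of libraries, a pattern that 14.3% of the 10731 expressed genes also had. The highest level of a gene was between 2.88 times (Ttn) and 11.5 times (Mybpc2) its lowest, and the lowest was in replicate 2 of 0.2% FBS + exosome for every one of the 9. By level, Mybph was the highest, Myom2 the next, Neb the third and Mybpc2 the lowest in each of the 6 libraries, whereas the order of the other 5 changed between libraries. In these cultures fewer myotubes and less RNA per myotube cannot be told apart.

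**Figure D1:**
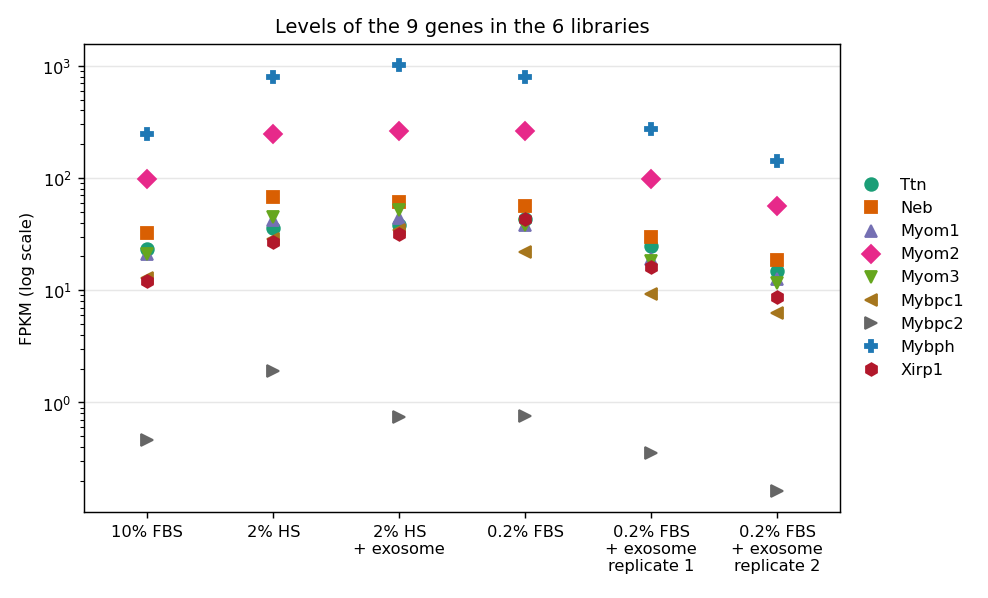
FPKM (log scale) of the 9 genes in each of the 6 libraries, 1 symbol per gene and library. The 3 libraries of 2% HS, 2% HS + exosome and 0.2% FBS lie above the others for every gene, from Mybph at 789 to 1011 FPKM down to Mybpc2 at 0.737 to 1.89 FPKM.

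Titin was a transcript of moderate level per kilobase. Ttn was at 23.3 FPKM in 10% FBS, 35.6 in 2% HS, 38.1 in 2% HS + exosome and 43.1 in 0.2% FBS, and at 24.8 and 15.0 in the 2 libraries of 0.2% FBS + exosome. Exosomes in 0.2% FBS thus left 0.576 and 0.347 of the level without them, while in 2% HS the level with exosomes was 1.07 times that without. One exosome library lay slightly above growing cells and the other below. In limma, a linear model fitted over all genes, Ttn fell by 1.12 ± 0.26 (SE) on the log2(FPKM + 1) scale with exosomes in 0.2% FBS, the smallest fall of the 8 genes tested, with a Benjamini-Hochberg adjusted p of 0.0309.

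Nebulin, whose length matches that of the thin filament in skeletal muscle, was above titin in every library. Neb was at 32.3 FPKM in 10% FBS, 67.4 in 2% HS, 60.9 in 2% HS + exosome and 56.7 in 0.2% FBS, and at 29.8 and 18.7 in 0.2% FBS + exosome. Unlike that of titin, its highest level was in 2% HS, and both exosome libraries in 0.2% FBS lay below growing cells. The ratio of Ttn to Neb was lowest in 2% HS, at 0.528, was 0.625 with exosomes there, 0.721 in 10% FBS and 0.76 in 0.2% FBS, and was 0.832 and 0.799 with exosomes in 0.2% FBS. Neb fell by 1.23 ± 0.25 (SE) on the log2(FPKM + 1) scale with exosomes in 0.2% FBS (limma, adjusted p = 0.023).

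The myomesins differed in level but moved in the same direction. Myom2, the isoform of fast adult fibres, was at 97.9 FPKM in 10% FBS, 248 in 2% HS, 261 in 2% HS + exosome and 262 in 0.2% FBS, and at 97.9 and 56.6 in 0.2% FBS + exosome. The first exosome library stood at the level of growing cells, and the second at 0.578 times that level. Myom2 fell by 1.80 ± 0.32 (SE) on the log2(FPKM + 1) scale (limma, adjusted p = 0.0151). Myom1, the myomesin found in all striated muscle, was at 21.1, 42.1, 43.7 and 38.0 FPKM in 10% FBS, 2% HS, 2% HS + exosome and 0.2% FBS, and at 19.2 and 12.6 in 0.2% FBS + exosome. Myom3, which is found in intermediate fibres, was at 20.9, 45.2, 51.6 and 38.2 FPKM in the same libraries and at 18.1 and 11.6 in 0.2% FBS + exosome. These 2 genes were within 1.18 times of each other in every library, and both exosome libraries in 0.2% FBS lay below growing cells. With exosomes in 0.2% FBS, Myom1 fell by 1.24 ± 0.23 (SE; limma, adjusted p = 0.0182) and Myom3 by 1.33 ± 0.24 (SE; adjusted p = 0.0163).

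Within the family, Myom2 made up most of the summed myomesin FPKM. Its share was 70% in 10% FBS, 74% in 2% HS, 73.3% in 2% HS + exosome and 77.5% in 0.2% FBS, and 72.4% and 70% with exosomes in 0.2% FBS. The share was thus highest in 0.2% FBS, and in the second exosome library it equalled that of growing cells. The share of Myom1 was lowest in 0.2% FBS, at 11.2%, and highest in that same exosome library, at 15.6%, and Myom3 held between 11.3% and 14.9%. The summed FPKM of the family was 338.3 in 0.2% FBS against 135.2 and 80.79 with exosomes. With 1 library in most groups, the shares were compared with no test.

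The myosin binding proteins covered the widest range of levels. Mybph, the gene of myosin binding protein H, was at 248 FPKM in 10% FBS, 794 in 2% HS, 1011 in 2% HS + exosome and 789 in 0.2% FBS, and at 273 and 141 in 0.2% FBS + exosome. It had the largest fall of the 9 with exosomes in 0.2% FBS, 2.00 ± 0.41 (SE) on the log2(FPKM + 1) scale (limma, adjusted p = 0.0219). Mybpc1, the slow type of myosin binding protein C, was at 12.7 FPKM in 10% FBS, 28.5 in 2% HS, 34.4 in 2% HS + exosome and 22 in 0.2% FBS, and at 9.23 and 6.24 in 0.2% FBS + exosome. It fell by 1.42 ± 0.22 (SE) with the lowest adjusted p of the 8 genes, 0.00999 in limma. Both exosome libraries in 0.2% FBS lay below growing cells for Mybpc1, and for Mybph only the second did.

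Mybpc2, the fast type of myosin binding protein C, had the lowest level of the 9. It was at 0.459 FPKM in 10% FBS, 1.89 in 2% HS, 0.737 in 2% HS + exosome and 0.751 in 0.2% FBS, and at 0.356 and 0.164 in 0.2% FBS + exosome. It stood out from the other 8 in 2% HS, the medium with its highest level, where the level with exosomes was 0.39 times that without. With a mean of 0.726 FPKM it was not tested. Mybph made up between 95% and 97.2% of the summed FPKM of these 3 genes, Mybpc1 between 2.71% and 4.87%, and Mybpc2 at most 0.229%. The cardiac paralog Mybpc3 was at 0.0789 FPKM or less in every library, and Mybphl, a relative of Mybph in heart atria, was at 0 in all but 1 library.

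**Figure D2:**
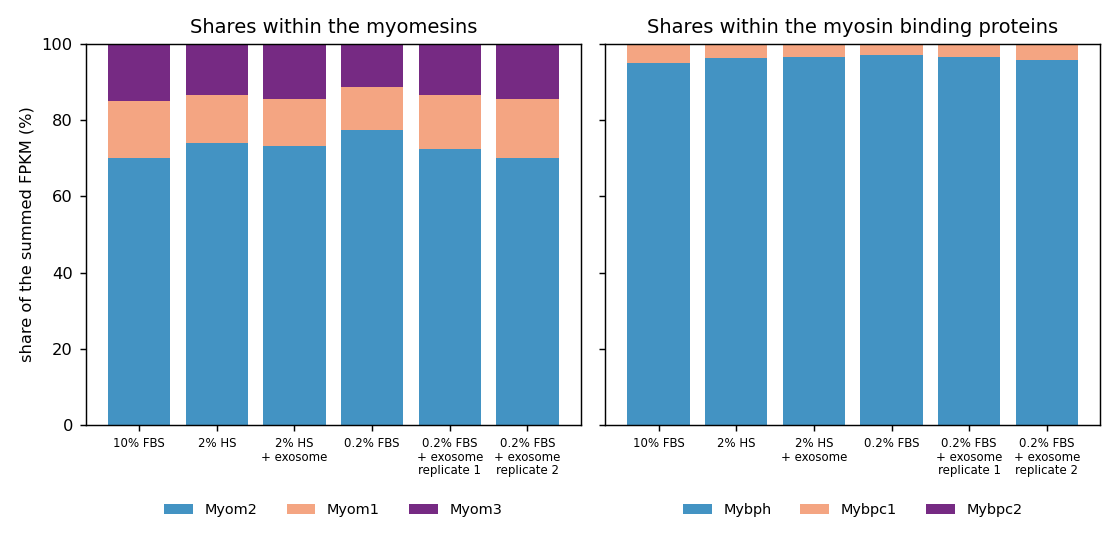
Share (%) of each gene in the summed FPKM of its family, 1 bar per library, with the myomesins on the left and the myosin binding proteins on the right. Myom2 holds 70 to 77.5% of the myomesins, and Mybph at least 95% of the myosin binding proteins, so that the Mybpc2 layer is too thin to be seen.

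The transcript of Mybph shares sequence with that of a neighbouring gene. Of the 2246 stretches of 75 bases, the read length, in its longest coding transcript, 946 (42.1%) also occur in transcripts of Adora1, the adenosine A1 receptor gene, whose exons overlap those of Mybph on the opposite strand. Adora1 was at 36.1 FPKM in 10% FBS, 109 in 2% HS, 145 in 2% HS + exosome and 109 in 0.2% FBS, and at 36.9 and 20.1 in 0.2% FBS + exosome. This was between 0.135 and 0.145 times Mybph in all 6 libraries. The library kit keeps the strand of the RNA, but whether the FPKM calculation used it is not given in the sources used here, so reads of the pair cannot be told apart. The values of both genes are therefore uncertain. For the other 8 genes the share of such stretches found in another gene was at most 4.63% (Mybpc1, with Gm48752), and it was 0 for Neb, Myom1, Myom2, Myom3 and Xirp1. Repeats within the transcript itself took 2.64% of the stretches of Neb and 0.654% of those of Ttn.

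**Figure D3:**
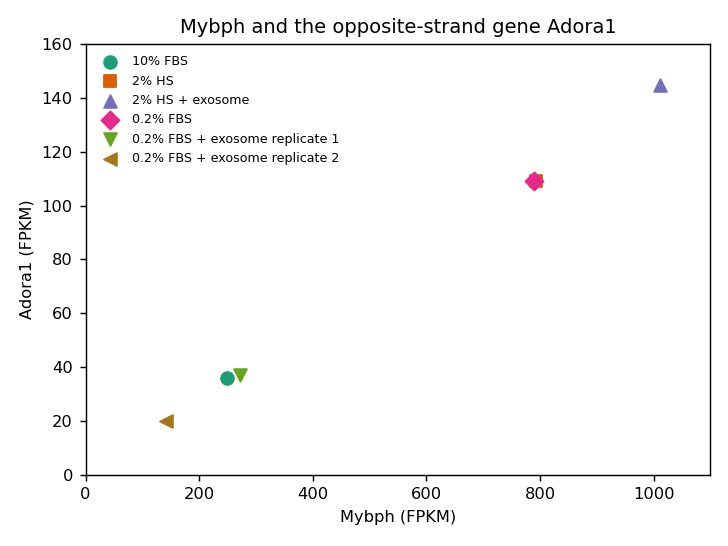
FPKM of Adora1 against FPKM of Mybph, 1 point per library. The points of 2% HS and 0.2% FBS nearly coincide, and Adora1 is 0.135 to 0.145 times Mybph in each library.

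Xirp1, the Xin gene, stood higher in 0.2% FBS than in 2% HS. It was at 12.1 FPKM in 10% FBS, 26.8 in 2% HS, 31.6 in 2% HS + exosome and 42.7 in 0.2% FBS, and at 16.1 and 8.77 in 0.2% FBS + exosome. In 0.2% FBS it was 1.6 times its level in 2% HS, the largest such ratio of the 9. With exosomes in 0.2% FBS the first library lay above and the second below growing cells. Xirp1 fell by 1.76 ± 0.29 (SE) on the log2(FPKM + 1) scale (limma, adjusted p = 0.0125). Its paralog Xirp2 was below 1 FPKM in every library.

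The central question of the design was what FBS exosomes do to cells that differentiate in 0.2% FBS. All 9 genes were lower in each exosome library than in 0.2% FBS alone, which was so for 27.5% of expressed genes, and the remaining levels were between 0.346 and 0.576 in replicate 1 and between 0.179 and 0.347 in replicate 2. On the log2(FPKM + 1) scale the mean of the exosome libraries was below the threshold of -1 used for this study for 8 of the 9 genes. The same was found for 1.16% of all entries and for 2.25% of those with a mean of at least 1 FPKM. Of the 20950 entries, 4500 were at 0 in every library and could not pass the threshold. Every share of all entries, here and below, is diluted by these. In both exosome libraries, 5 of the 9 genes were below -1 (Myom2, Myom3, Mybpc1, Mybph and Xirp1), against 0.835% of all entries. These were also the 5 below -1 in replicate 1, while in replicate 2 it was 8. Replicate 1 shares the number 2 of its title with the 0.2% FBS library, whereas replicate 2 has the number 3. The median difference of the 9 was -1.33, against 0.14 over the 10731 expressed genes.

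In limma all 8 tested genes fell, with adjusted p-values of 0.00999 to 0.0309, and 4.32% of the 10731 genes tested were called lower. The spread in this fit comes from the 2 libraries of 0.2% FBS + exosome alone, and the libraries without a replicate are assumed to vary as these do. The call was lost for all 8 when values below 1 FPKM were raised to 1 (adjusted p from 0.134 to 0.171) or when genes of any level were tested (0.258 to 0.336), and for 7 of the 8 when each library was scaled to the same sum (0.0493 to 0.0944), while the falls themselves stayed between -1.12 and -2.01.

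The replicate libraries were not alike. All 9 genes were lower in replicate 2 than in replicate 1, at 0.461 to 0.676 times its level with a median of 0.603, a direction shared by 36.4% of expressed genes. Replicate 2 was also below growing cells for 9 of 9 (39.4% of expressed genes), at 0.357 to 0.727 times their level, and replicate 1 for 6 of 9 (49.5%), among them Myom2 by less than the printed digits show. The SD between the replicates on the log2(FPKM + 1) scale was largest for Mybph, at 0.67. For Mybpc2 it was 0.16, the smallest, as the pseudocount of 1 compresses values of 0.356 and 0.164 FPKM, although by ratio its replicates differed the most of the 9, at 0.461. For the mean of both against 10% FBS, limma called 0 of the 8 genes (adjusted p from 0.297 to 0.991), with 1, Mybpc1, at an unadjusted p under 0.05, as were 11.5% of all tested genes, of which 0.0652% were called. Mybpc1 differed by -0.68 (95% interval -1.17 to -0.18), and for Xirp1 the difference was -0.02 (-0.68 to 0.64). These intervals do not show that exosome-treated and growing cells were alike.

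**Figure D4:**
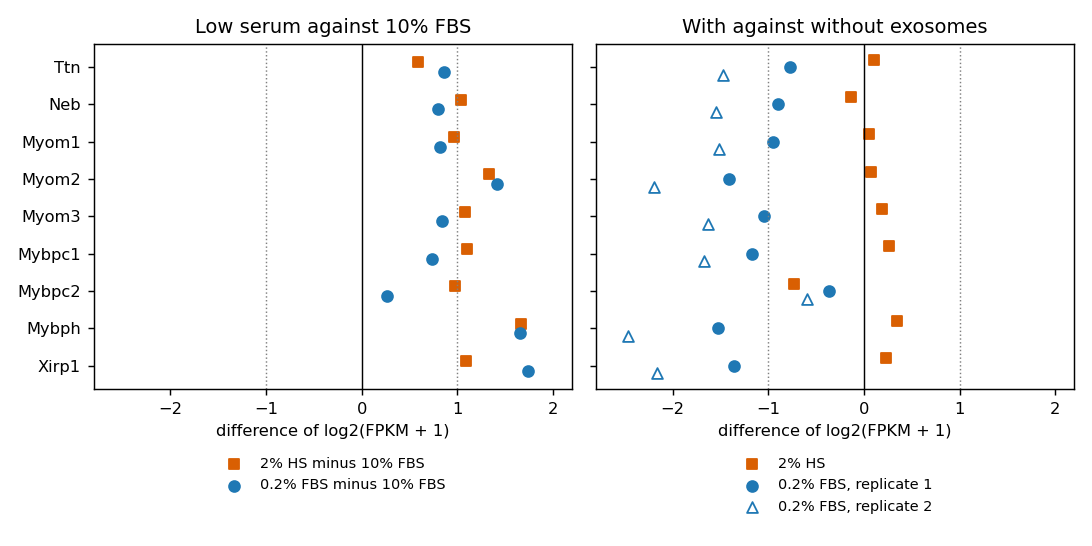
Difference of log2(FPKM + 1) for each gene, with low serum against 10% FBS on the left and exosomes against none on the right, and dotted lines at -1 and 1. With exosomes, both 0.2% FBS libraries lie to the left of 0 for all 9 genes, from -0.37 down to -2.47, whereas the 2% HS library lies between -0.73 and 0.35.

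Low serum without exosomes was compared with growth to place the genes in the differentiation of these cells. All 9 were higher in both 2% HS and 0.2% FBS than in 10% FBS, a pattern of 31.4% of expressed genes, by 1.53 to 4.11 times in 2% HS and 1.63 to 3.54 times in 0.2% FBS. On the log2(FPKM + 1) scale 6 of 9 passed 1 in 2% HS (Neb, Myom2, Myom3, Mybpc1, Mybph and Xirp1; 0.945% of all entries) and 3 of 9 in 0.2% FBS (Myom2, Mybph and Xirp1; 0.931%). The medians were 1.08 and 0.84, against -0.08 and -0.09 over expressed genes. These are differences of 1 library against 1, with no replicate check.

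Averaged over the 2 media, the differences from growth ranged from 0.73 (Ttn) to 1.67 (Mybph), and limma called 0 of the 8 genes higher, with adjusted p-values from 0.0504 (Xirp1) to 0.167 (Ttn). All 8 had an unadjusted p under 0.05, as did 21.9% of the genes tested, of which 1.42% were called higher. Scaling to the 75th percentile brought 5 of the 8 past the threshold (Myom2, Myom3, Mybpc1, Mybph and Xirp1, adjusted p from 0.0246 to 0.0444), and the range over all 8 was then 0.0246 to 0.118. That scaling also raised the number of all 10731 genes called higher from 152 to 324. Partner genes called higher in low serum are given below. Among marker genes of cell types and states, limma called Dcn, a fibroblast marker, higher in low serum (1.48, adjusted p = 0.0392) and Myf5, a myoblast marker, lower (-0.93, adjusted p = 0.0489), and 0 of the 8 myotube markers. With values below 1 FPKM raised to 1, or with genes of any level tested, limma called 0 genes in this comparison, so both calls were lost. With libraries scaled to the same sum it called 0 genes higher, so Dcn lost its call there too. Fitted without a trend of variance on mean level, limma called 1 gene higher and 1 lower over all, against 152 and 62 by default. The part of these cell states in the differences was not tested.

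Between the 2 low serum media themselves the level in 0.2% FBS was between 0.397 (Mybpc2) and 1.6 (Xirp1) times that in 2% HS. The difference on the log2(FPKM + 1) scale was between -0.72 (Mybpc2) and 0.65 (Xirp1), and 0 of 9 passed 1 in either direction (0.296% of all entries). For Mybpc2, at under 2 FPKM, the difference depends on the pseudocount and was -1.23 with a pseudocount of 0.1. Over 2% HS, 2% HS + exosome and 0.2% FBS, the range of a gene on this scale was between 0.08 (Myom2) and 0.73 (Mybpc2). With 1 library in each, the order of these 3 conditions was not tested for any of the genes.

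In 2% HS the differences with exosomes were closer to 0 than in 0.2% FBS for 8 of the 9 genes, as they were for 71.6% of expressed genes. The exception was Mybpc2 (-0.73 against -0.48), though not with a pseudocount of 0.1 (-1.25 against -1.29). With exosomes 7 of the 9 genes were slightly higher, a direction shared by 41.3% of expressed genes, and Neb and Mybpc2 were lower. The differences ran from -0.73 (Mybpc2) to 0.35 (Mybph) with a median of 0.10, against -0.04 over expressed genes, and 0 of 9 passed 1 in either direction (0.344% of all entries). This is again 1 library against 1.

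Whether the change with exosomes differed between the media was tested directly. The change in 0.2% FBS was lower than that in 2% HS by -1.08 (Neb) to -2.35 (Mybph), and limma called 0 of the 8 genes, with adjusted p-values from 0.0554 (Mybpc1) to 0.187 (Neb). All 8 had an unadjusted p under 0.05, as did 19.5% of the genes tested, and 0.867% of them were called lower. With 75th percentile scaling 4 of the 8 were called (Myom2, Myom3, Mybpc1 and Xirp1, adjusted p from 0.0204 to 0.0482), and the number of all genes called lower went from 93 to 262. For Mybpc1 the difference was -1.68 (95% interval -2.43 to -0.92). A model with 1 exosome effect for both media called 0 of the 8 genes (adjusted p from 0.705 to 0.707) and 0% of all tested, with 1 gene, Neb, and 6.61% of all at an unadjusted p under 0.05. In that model the call depends on single libraries: without the 2% HS library, or without the 2% HS + exosome library, its effect is that in 0.2% FBS alone and 8 of 8 were called, among 466 genes called lower in all.

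Partner genes were then examined in 4 lists with 53 genes, of which 44 had a mean of at least 1 FPKM. With exosomes in 0.2% FBS limma called 21 of these 44 lower and 2 higher, against 4.32% lower and 8.2% higher over all genes tested, and 1.16% of all entries were below -1 by fold change. With values below 1 FPKM raised to 1, or with genes of any level tested, limma called 0 genes of the whole table, so that every call of a partner or marker in this comparison was lost. With libraries scaled to the same sum it called 191 genes lower and 377 higher, against 464 and 880 by default. Which partners and markers kept their call there was not examined. For serum reduction, 5 of 18 titin, 3 of 12 nebulin and 2 of 8 thick filament partners were called higher (1.42% of all genes tested). For the difference between media, 4 of 18, 3 of 12 and 3 of 8 were called lower (0.867%). There 1 nebulin partner was called higher (32 of 10731 genes). None of 6 Xin partners was called in either comparison. These calls, too, were lost with values below 1 FPKM raised to 1, with genes of any level tested, and with libraries scaled to the same sum. Fitted without a trend of variance on mean level, limma called 1 gene of the whole table higher for serum reduction. At most 1 of those partner calls can remain there. For the difference between media that fit called 40 lower and 5 higher over all genes. With exosomes in 0.2% FBS, 10 of 18 tested partners of titin and the M-band were called lower and none higher. By fold change 9 of 20 listed were below -1 on the mean, and 6 in both exosome libraries (0.835% of all entries). The largest falls by the mean were in Ankrd2, a stretch-responsive ankyrin repeat protein that binds titin (-3.01), Actn2, the alpha-actinin of the Z-disc (-2.10), and Tcap, which caps titin at the Z-disc (-1.80), with adjusted p-values of 0.0182, 0.00452 and 0.00452. With exosomes Ankrd2 was at 51.4 and 14.3 FPKM, from 228 FPKM in 0.2% FBS alone. The highest values were 0.59 for both Fhl2 and Sqstm1, neither called (adjusted p = 0.0613 and 0.203). Obsl1, which encodes a linker protein of the M-band, fell by 0.68 (adjusted p = 0.0414), and Speg, the gene of a striated muscle kinase, was at 0.21 (adjusted p = 0.418).

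Among the nebulin and thin filament partners 7 of 12 tested were called lower and 2 higher (4.32% and 8.2% over all genes), and by fold change 6 of 15 listed were below -1 (1.16% of all entries) and 1 above 1. Lmod2 and Lmod3, leiomodins that nucleate actin filaments and act on their length, and Klhl41, which stabilises nebulin, fell to differences of -2.06, -1.79 and -1.47 (limma, adjusted p = 0.00591, 0.00655 and 0.00862). The 2 that rose were Lasp1, a small relative of nebulin found outside the sarcomere too (1.09, adjusted p = 0.00984), and Tmod3, the tropomodulin of many cell types (0.77, adjusted p = 0.0254). Lasp1 went from 26.1 FPKM without exosomes to 58.7 and 54.9 FPKM with them, so that these members of the nebulin family moved in opposite directions. Nrap, a nebulin-related anchoring protein, fell by 1.30 (adjusted p = 0.0071). The cardiac relative Nebl was below 0.02 FPKM in every library.

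Of the thick filament partners 4 of 8 tested were called lower and none higher (4.32% and 8.2% over all genes). All 8 were lower in each exosome library than in 0.2% FBS alone (27.5% of expressed genes). By fold change 8 of 11 listed were below -1 on the mean (1.16% of all entries) and in both exosome libraries (0.835%). Myh4 and Myh8, the fast IIb and perinatal myosin heavy chains, fell by 2.36 and 2.17 (limma, adjusted p = 0.00647 and 0.00764), and Mylpf, a fast regulatory light chain, was at -1.75 without a call (adjusted p = 0.144). Myh7, the slow heavy chain, fell by 1.41 (adjusted p = 0.00764), and Unc45b, a myosin chaperone, was at -0.85 (adjusted p = 0.0839). The embryonic heavy chain Myh3 was at -1.58, also without a call (adjusted p = 0.0586). None of the 6 tested partners of Xin was called in limma, and their values ran from -0.82 (Cdh2, the N-cadherin gene, adjusted p = 0.0717) and -0.68 (Flnc) through -0.06 (Vcl, the vinculin gene) to 0.57 (Ctnnd1) and 0.53 (Ctnnb1). Xirp1 thus fell by 1.76 beside a partner list with a median of 0.11, whereas the medians of the titin, nebulin and thick filament lists were -0.90, -1 and -1.65. That contrast between lists was not tested.

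**Figure D5:**
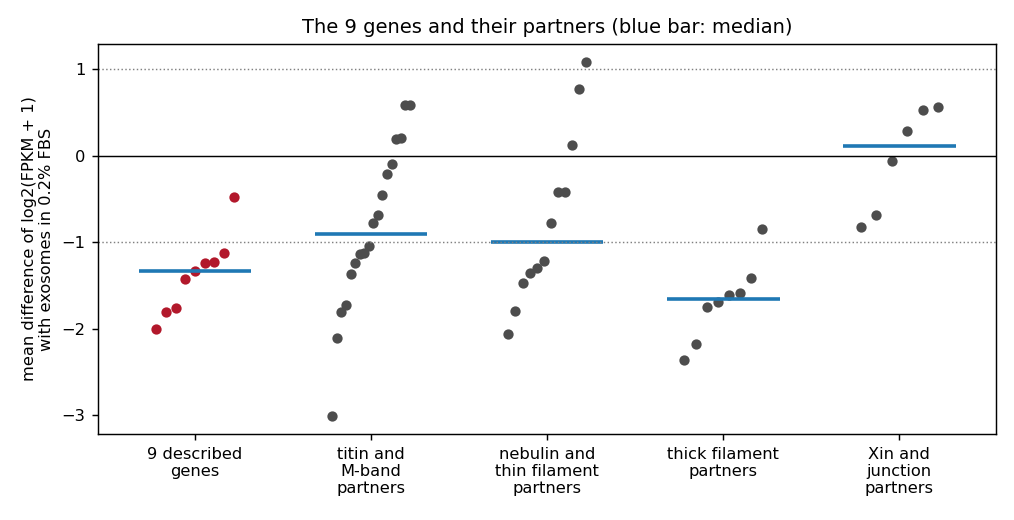
Mean difference of log2(FPKM + 1) with exosomes in 0.2% FBS, 1 point per gene, for the 9 described genes and for the 44 partner genes that reached a mean of 1 FPKM, with blue bars at the medians and dotted lines at -1 and 1. The 9 genes all lie below 0, the titin and nebulin partners spread on both sides of it, and the Xin partners lie around it.

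Markers of cell state moved in the same comparison. Of 8 myotube markers 3 were lower in limma, where 4.32% of all genes tested were lower and 8.2% higher (Tnnt3 at -1.81, Tmem8c at -1.37 and Gm7325 at -1.32; adjusted p = 0.0289, 0.0484 and 0.0145), while Myog was at -0.82 (adjusted p = 0.12). All 8 were lower in each exosome library than in 0.2% FBS alone (27.5% of expressed genes). By fold change 6 of them were below -1 on the mean (1.16% of all entries) and 5 in both exosome libraries (0.835%). Of 7 markers of undifferentiated myoblasts 3 were higher, namely Id3, Id1 and Myf5, at 2.12, 1.12 and 0.96 (adjusted p = 0.0375, 0.0209 and 0.0196), while Ncam1 and Myod1 of the same list were at -0.93 and -0.23 without a call (adjusted p = 0.054 and 0.472). None of the 6 cycling cell, 5 fibroblast and 5 ubiquitous genes was called, and the summed FPKM of the fibroblast list ran from 1257 to 1274 in 10% FBS, 2% HS and 2% HS + exosome, and was 1658 in 0.2% FBS and 2096 and 1603 with exosomes. Col3a1 carried most of that sum, and Dcn of the same list was at 41.1, 165 and 182 FPKM in the first 3 of these libraries and at 81.6, 156 and 112 in the others. The summed FPKM of the myotube list was 12342 in 0.2% FBS against 5517 and 4085 with exosomes, with 5430 in 10% FBS, 11359 in 2% HS and 10775 in 2% HS + exosome, and that of the myoblast list was 437.5 in 0.2% FBS against 421.7 and 507.1 with exosomes. The adipocyte, osteoblast and blood cell lists, with 1 gene each above a mean of 1 FPKM, gave no call, and their sums were at most 3.18, 17.3 and 3.6 FPKM. The part of these cell states in the falls was not tested.

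Relative to Myh3, a gene of the myotube itself, the 9 genes varied less than their FPKM did. The profile of Myh3 over the libraries was close to the mean of 8 of them (r = 0.9969). A smaller variation thus follows from the choice of this reference. Per 100 units of Myh3, Myom2 was at 13.3 in 10% FBS, 16.3 in 0.2% FBS and 13.7 and 14 in 0.2% FBS + exosome, and Neb at 4.37, 3.54, 4.18 and 4.63. Ttn was at 2.69 in 0.2% FBS and at 3.48 and 3.7 with exosomes, so that relative to Myh3 both Neb and Ttn were higher with exosomes in 0.2% FBS and Myom2 was lower. Myom1 and Myom3 were also higher in both exosome libraries. Mybph was lower, at 49.2 in 0.2% FBS and 38.3 and 35 with exosomes, as was Xirp1, at 2.66 against 2.26 and 2.17. For Mybpc1 and Mybpc2 the exosome libraries lay on either side of 0.2% FBS. In 2% HS the values without and with exosomes were 4.28 and 3.89 for Neb, 2.26 and 2.43 for Ttn and 15.8 and 16.7 for Myom2. Relative to Rpl13a, a ribosomal protein gene, Ttn was at 6.97 per 100 units in 0.2% FBS and at 3.99 and 1.71 with exosomes. The levels relative to Myog, per 100 units, were 6.51 in 0.2% FBS and 7.09 and 3.73 with exosomes for Ttn, and 39.6, 28 and 14.1 for Myom2.

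The profiles over the libraries were compared by Pearson's r of log2(FPKM + 1) over the 6 libraries, as a description. The genes outside the 9 with the most similar profile to the mean of 8 of them were Cldn2 (r = 0.9989), a claudin, Myl4 (0.9975), the embryonic and atrial essential light chain, Myh3 (0.9969), Ablim1 (0.9952), an actin-binding LIM protein, and Adora1 (0.9950). That mean includes Mybph, whose reads cannot be told apart from those of Adora1, so the r of Adora1 may come in part from shared reads. With exosomes in 0.2% FBS Cldn2 was at 5.71 and 3.08 FPKM, against 13.4 FPKM without. Among the 36 pairs of the 9 genes r had a median of 0.962, was highest for Myom1 and Myom3 (0.9967) and lowest for Mybpc2 and Xirp1 (0.649). The 6 points share their libraries.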

How the data were processed

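The 6 libraries were made with the TruSeq Stranded mRNA kit from total RNA, whose extraction kit is a miRNeasy Micro Kit per the labels and an RNeasy Micro Kit in the study's methods, and were read as single ends of 75 bases. The authors trimmed the reads with cutadapt 1.9.1, mapped them to mm10 with TopHat2 2.1.0 and used Cufflinks to calculate FPKM. The deposited table holds these FPKM values, with a column for each library, and each value is already divided by transcript length and library depth. The annotation and the strand setting of that calculation are not given in the sources used here. Groups were taken from the treatment label of each library.

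The deposited values were turned into log2(FPKM + 1), with a pseudocount of 1. Differences were read against a log2 change above 1 or below -1, the criterion of the study's methods, and were tested with limma 3.58.1 in R 4.3.3 (mean-variance trend, 1 mean per condition, Benjamini-Hochberg adjusted p under 0.05 over the 10731 entries whose mean reached 1 FPKM). The model of a common exosome effect used the 5 differentiating libraries with a term for medium. Depth was estimated as the number of reads at which the low FPKM of 2442 genes with 1 transcript came nearest to whole reads, taking a fragment of 200 bases, and 75.5 to 79.2% of values lay within 0.1 of a whole read, where an even spread of values would give 20%. These steps do not recover whole reads for nearly all genes, so no count test was run. Genome positions are from GENCODE on mm10, and promoters from RefSeq on GRCm38.p6. Alternatives were another pseudocount, a floor, 2 scalings, 2 filters, no trend, a block for the title number, and leaving out libraries.

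The members, partner lists, marker lists and tests were chosen with earlier results of these data known. Named genes were the 9 members, the 3 lowest and 2 highest changes of each list among genes whose mean reached 1 FPKM, paralogs of the members, 3 reference genes and the 5 most similar profiles. Other partners and markers in the text were named to show what was called in their list and were chosen after their values were seen. Not every gene covered by this rule is reported here.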

Additional observations from a re-analysis of the deposited data

Results flagged for a closer look

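For 7 of the 9 genes the difference with exosomes was above 0 in the 2% HS library and below 0 in both 0.2% FBS libraries, a pattern of 12% of the 10731 expressed genes, so that every library of one medium lay opposite to every library of the other. The change in 0.2% FBS minus that in 2% HS, on the log2(FPKM + 1) scale, was -1.21 ± 0.40 (SE) for Ttn, -1.29 ± 0.36 for Myom1, -1.87 ± 0.48 for Myom2 and -1.52 ± 0.37 for Myom3. It was -1.68 ± 0.33 for Mybpc1, -2.35 ± 0.62 for Mybph and -1.99 ± 0.44 for Xirp1. The difference was tested with limma, and none of the 7 passed the threshold, with adjusted p-values from 0.0554 (Mybpc1) to 0.159 (Ttn). After scaling to the 75th percentile, when 262 in place of 93 of all 10731 genes were called lower, 4 of the 7 passed it, namely Mybpc1 (0.0204), Xirp1 (0.0312), Myom3 (0.04) and Myom2 (0.0482), and the largest adjusted p of the 8 tested genes was 0.116. The 7 were picked for their opposite directions in the values tested. The 2% HS side is 1 library with exosomes against 1 without.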

How the results depend on the processing

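The spread in the limma fit with 1 mean per condition rests on 2 libraries, and leaving out either exosome library in 0.2% FBS leaves it no residual degrees of freedom, so that it has no test. The direction in 0.2% FBS held for all 9 genes under each alternative except that Mybpc2 came to 0.00 when values below 1 FPKM were raised to 1, which sets all its values there to 1. In that comparison 8 genes passed the fold change threshold on the mean, and leaving out 1 exosome library gave 5 to 8 (5 without replicate 2). A pseudocount of 0.1 in place of 1 put Mybpc2 past the threshold there too (-1.29, 9 of 9 genes), and made it the 1 gene past it for exosomes in 2% HS (-1.25) and the 1 gene between 0.2% FBS and 2% HS (-1.23). Of the 8 genes called by limma with exosomes in 0.2% FBS, 0 were called with values below 1 FPKM raised to 1, 0 with every gene above 0 tested and 1 with libraries scaled to the same sum, and 7 without a mean-variance trend, where Ttn lost its call (adjusted p = 0.0524). The 2 replicates had equal values for 0 of the genes tested by default, 77 with the floor and 1088 without the filter. For serum reduction, 0 called became 1 at a pseudocount of 0.1, 5 with 75th percentile scaling and 1 among genes whose mean reached 10 FPKM, while the calls of higher genes over all went from 152 to 174, 324 and 115 (the last of 5876 genes), and was 0 without either low serum library, an alternative chosen after seeing the data. For the difference between media, 0 became 1 at a pseudocount of 0.1 and 4 with 75th percentile scaling, and the calls of lower genes over all went from 93 to 111 and 262. The common exosome effect gave 0 to 8 calls when a library was left out. Without a given library it ranged from -1.12 to 0.10 for Ttn, -1.24 to 0.05 for Myom1, -1.80 to 0.07 for Myom2, -1.33 to 0.19 for Myom3, -1.42 to 0.26 for Mybpc1, -2.00 to 0.35 for Mybph and -1.76 to 0.23 for Xirp1, and the values above 0 are those without the 0.2% FBS library, since only the 2% HS pair then carries the effect. Mybph between 0.2% FBS and 2% HS reversed to 0.03 with 75th percentile scaling. The other causes were not tested.

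Over all genes limma called 464 lower and 880 higher with exosomes in 0.2% FBS, against 803 and 855 with 75th percentile scaling, 191 and 377 scaled to the same sum, and 0 and 0 with the floor or without the filter. By fold change 244 were lower and 195 higher (44.4% of those past the threshold), against 290 and 136 (31.9%) with 75th percentile scaling, which moved the median of expressed genes from 0.14 to 0.04, and 506 and 547 at a pseudocount of 0.1. The labels number the differentiating libraries, but a number is shared across conditions only within 2 pairs. These are 2% HS with 2% HS + exosome (number 1) and 0.2% FBS with replicate 1 of 0.2% FBS + exosome (number 2). Replicate 2 has the number 3 and no control of that number. What the numbers stand for is not given. A replicate block for this number left the common exosome effect at 0 called genes, with an adjusted p of 1.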
